A study of Homo sapiens with 6 samples.

Results

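The 7 fatty acid-binding protein genes numbered FABP1 to FABP7 were followed here in HEK293 cells with and without the mitochondrial E3 ubiquitin ligase MUL1. They are 7 of the 57123 genes for which counts could be summed, and they were taken by name, with earlier results of these libraries known. HEK293 is a human embryonic kidney line. RNA was sequenced from 3 libraries labelled WT and 3 labelled MUL1(-/-), both grown in DMEM with fetal calf serum, and the MUL1(-/-) cells had been made by CRISPR-Cas9. The labels give neither the clone of a library nor a separate culture for it, so p-values measure the spread between these libraries, which may be technical. Gene counts summed to 134414503, 142803296 and 127015142 in WT and to 122441959, 122305055 and 121917971 in the MUL1(-/-) libraries, so every WT library was deeper than every MUL1(-/-) library. Levels are therefore given in CPM, counts scaled to a common library size with edgeR's TMM factors, on which 1 count was worth 0.00707 to 0.00807 CPM.

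Fatty acid-binding proteins are small cytosolic barrels that hold a fatty acid, a bile acid or a related lipid in an inner pocket. They keep these poorly soluble molecules in solution, move them between membranes, mitochondria and lipid droplets, and hand some of them to nuclear receptors such as the PPARs. Each is named for the tissue in which it is abundant: liver for FABP1, intestine for FABP2, heart for FABP3, adipocyte for FABP4, epidermis for FABP5, ileum for FABP6 and brain for FABP7. A cell usually relies on a few members of the family.

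One member accounted for nearly all of the family's RNA. FABP5 supplied 95.9% to 96.7% of the family's summed CPM in every library. The sum was 40.8 ± 1.71 CPM in WT and 58.7 ± 6.61 CPM in the MUL1(-/-) libraries (SD, n = 3). Per kb of exon, the level of FABP5 was 18.9 ± 0.830 CPM in WT and that of FABP3 was 1.24 ± 0.107 CPM, and within a library FABP5 was 13.7 to 22.1 times as high as FABP3. Below these in WT came FABP6 at 0.0568 ± 0.0308 CPM per kb, FABP4 at 0.0387 ± 0.0348, FABP2 at 0.0224 ± 0.00323 and FABP7 at 0.0138 ± 0.00695. Each of these 4 overlapped its neighbour in that order within their SDs, whereas FABP6 and FABP7, the ends of the order, did not. In the MUL1(-/-) libraries FABP6 and FABP4 stood clear of FABP2 and FABP7, at 0.419 ± 0.0373 and 0.237 ± 0.101 CPM per kb, against 0.0215 ± 0.00803 and 0.00581 ± 0.00579. FABP1 had no count in any library.

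**Figure D1:**
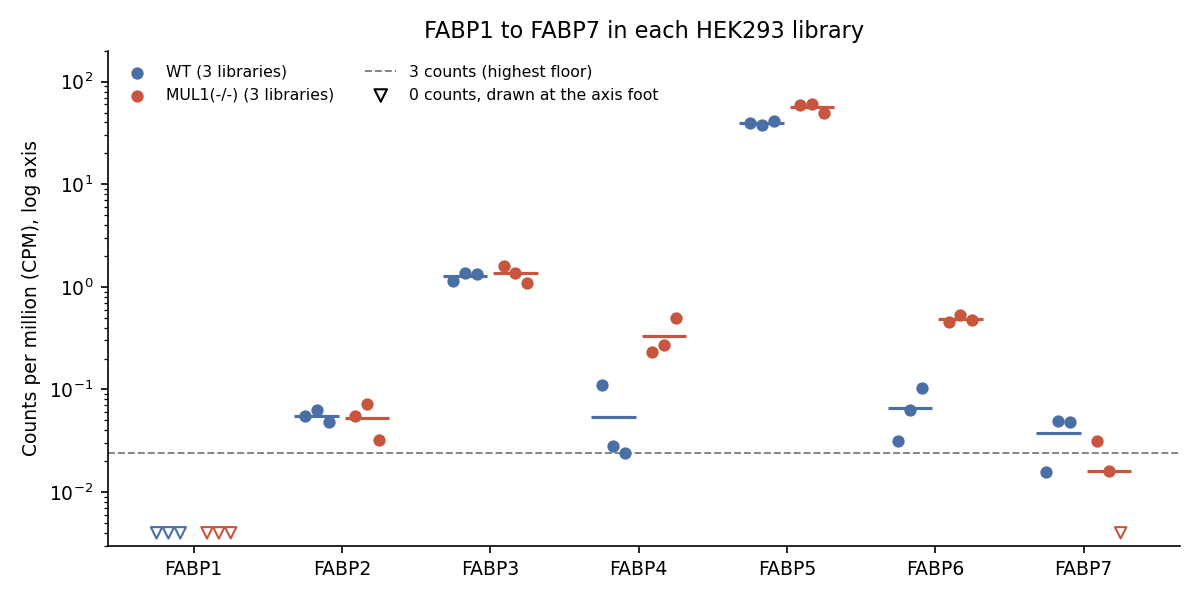
CPM of each FABP gene on a log axis, 1 point per library, blue for WT and red for MUL1(-/-), with group means as short lines, the level of 3 counts dashed and open triangles for libraries with 0 counts. FABP5 lies above all other members, and the red points of FABP4, FABP5 and FABP6 lie above their blue points.

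Changes were tested over all genes with edgeR's quasi-likelihood test and Benjamini-Hochberg adjustment. A gene was called when its adjusted p was under 0.05 and its log2 fold change was beyond 1 in either direction. Of the 7 members, 4 (FABP3, FABP4, FABP5 and FABP6) had enough counts to be tested, and 2 of those (FABP4 and FABP6) were called, both higher in the MUL1(-/-) libraries. Over all 25125 tested genes 8.11% were called, 4.23% higher and 3.87% lower. FABP5 passed the adjusted p but not the fold. By adjusted p alone, whatever the fold, 18.8% of all tested genes were higher. In FABP4, FABP5 and FABP6 every MUL1(-/-) library lay above every WT library, which held in that direction for 24.1% of tested genes. FABP4 and FABP6 passed the filter on low counts through their MUL1(-/-) libraries, so these counts over the tested members are a description only, as is their median log2 fold change of 1.56 against -0.0098 over all tested genes. In RNA from a whole culture, more cells of 1 kind and more RNA per cell cannot be told apart.

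The targeted gene did not mark the genotype at the level of RNA. MUL1 (ENSG00000090432) had 1962, 2146 and 2396 counts in WT and 2366, 2084 and 2378 in the MUL1(-/-) libraries. The groups overlapped, with a log2 fold change of 0.14 ± 0.10 (SE, edgeR adjusted p = 0.321). These counts therefore do not check the label, and the genotype is used here as labelled. All 8 HEK293 markers were detected and tested, led by VIM, the mesenchymal intermediate filament. Their summed level was 1526, 1381 and 1312 CPM in WT and 1090.3, 1116 and 935 CPM in the MUL1(-/-) libraries. Among them NEFM, a neurofilament subunit, rose (log2 fold change 1.06) and PAX2, a kidney transcription factor, fell (-1.80), beside 8.11% of all tested genes called. KRT8, an epithelial keratin and the second most abundant, went from 324 ± 18.7 to 170 ± 12.05 CPM (-0.93, edgeR adjusted p = 2.05e-07), under the fold, and was called lower in unshared bins (-1.14). Of the VIM counts 53.8% fell where another gene has exons. Markers of the tissues each member is named for are given beside that member, and their part in the changes was not tested.

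FABP6 (ENSG00000170231, chr5:160187367-160238735, plus strand, GRCh38) encodes the ileal carrier that moves bile acids across the enterocyte. It had 4, 9 and 13 counts in WT and 57, 67 and 59 in the MUL1(-/-) libraries, or 0.0315, 0.0636 and 0.103 against 0.450, 0.535 and 0.476 CPM. The lowest MUL1(-/-) library was above the highest WT library. FABP6 rose, with a log2 fold change of 2.87 ± 0.35 (SE, edgeR adjusted p = 1.36e-05), and this gene is one that the study named from these same libraries, so its direction is not independent evidence. Leaving out each library in turn gave 2.54 to 3.31. Even at 0.535 CPM, its highest value, FABP6 was scarcer than FABP3 in any library.

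The annotation gives FABP6 2 protein-coding forms, and of these only the long form has the exons between their starts. Exon 3 also lies in a transcript that is not annotated as coding, so its counts cannot be assigned to the long form. The long form has 7 exons and 177 codons, and the short form, the ileal protein, has 128. The 49 extra codons lie before the start codon of the short form. Exons 3 and 4 of the long form are shown because exon 3 belongs to no annotated transcript that begins at the short form's start, and exon 4 holds that form's start codon. Both are on the plus strand of GRCh38 (GENCODE release 29), 5′ to 3′, and are coding throughout in the long form. The capitals in exon 4 mark the start codon of the short form, which begins at base 13 of the exon.
FABP6 exon 3, chr5:160213736-160213819: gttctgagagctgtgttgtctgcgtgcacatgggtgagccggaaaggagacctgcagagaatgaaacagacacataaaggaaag
FABP6 exon 4, chr5:160229546-160229624: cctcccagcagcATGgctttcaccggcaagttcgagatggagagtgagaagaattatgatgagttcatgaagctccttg

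The counts of FABP6 were spread over exons 3 to 7 in the MUL1(-/-) libraries. Exon 3, printed above, had 1, 3 and 1 counts in WT and 12, 11 and 10 in the MUL1(-/-) libraries. Exon 4 had 1, 3 and 3 against 12, 14 and 12, and exon 5, the most counted, had 1, 3 and 7 against 17, 22 and 18. In all 3 exons the groups did not overlap, and the ratio of mean CPM was 7.12 for exon 3, 5.74 for exon 4 and 5.38 for exon 5. Exon 6 held 1 count over WT and 30 over the MUL1(-/-) libraries, and exon 7 held 0 and 19. The first exon of the long form had no count in any library and its second had 1, in a MUL1(-/-) library. The bases that only the short form has at its start had 2 counts, both in 1 MUL1(-/-) library.

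The bins wholly upstream of the short form's first exon held 2 of 4, 3 of 9 and 1 of 13 FABP6 counts in WT and 14 of 57, 11 of 67 and 11 of 59 in the MUL1(-/-) libraries. As shares these were 50.0%, 33.3% and 7.69%, against 24.6%, 16.4% and 18.6%. The 95% Wilson interval of the first WT share ran from 15.0% to 85.0%, and that of the first MUL1(-/-) share from 15.2% to 37.1%. The mean share differed by -10.5 percentage points (MUL1(-/-) minus WT), with an exact two-sided permutation p of 0.5 over 3 against 3 libraries, a design that cannot go below 0.1. The difference was -0.64 without the first WT library and -21.8 without the third. Part of the FABP6 counts lay upstream of the ileal start in every library, without showing which upstream transcript they came from. These intervals cover counting error only, and they are too narrow where a read was counted in more than 1 bin, as the processing allowed.

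**Figure D2:**
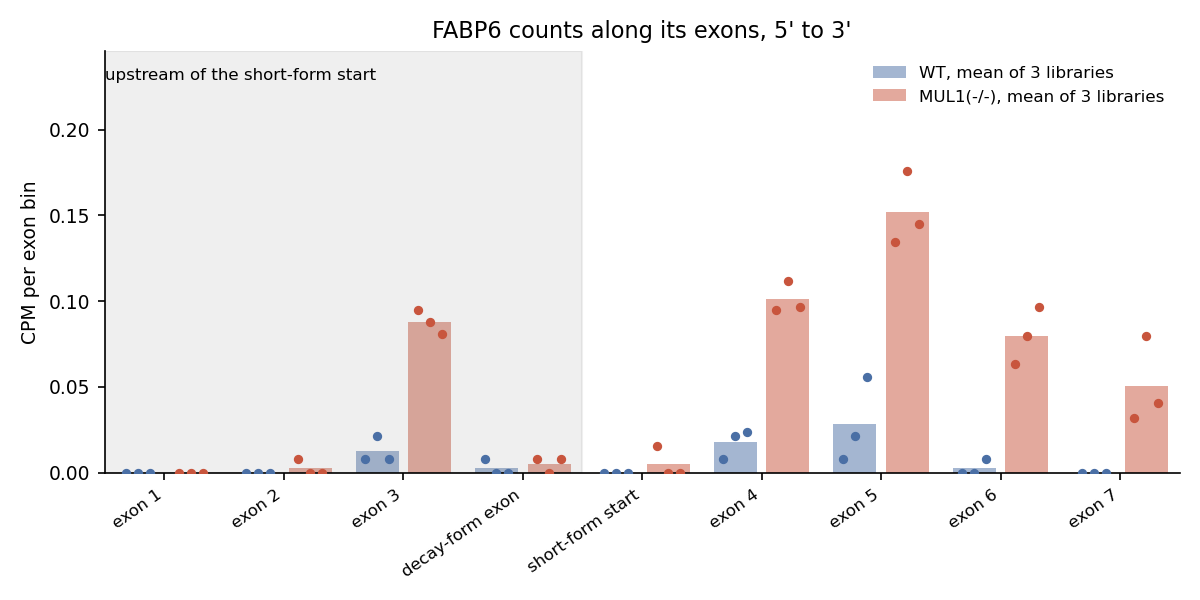
CPM in each exon bin of FABP6 in 5′ to 3′ order, bars for the mean of 3 libraries and points for single libraries, blue for WT and red for MUL1(-/-). The grey area covers the bins upstream of the short form's start, where exon 3 holds nearly all the counts, and the decay-form exon belongs to a transcript annotated for nonsense-mediated decay. The red bars exceed the blue ones from exon 3 to exon 7.

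Of the 3 ileal transport markers only SLC51A, a subunit of the basolateral bile acid exporter, was tested. It rose, beside 4.23% of all tested genes called higher. Its counts were 354, 358 and 303 in WT against 866, 791 and 754 (log2 fold change 1.32, edgeR adjusted p = 6.31e-07). Exons of another gene touch the bins that gave 57.6% of its counts. Its log2 fold change was 1.97 in unshared bins and 0.99, under the fold threshold, in its most counted bin. SLC51B, the other subunit of the exporter, had 1, 4 and 10 counts against 1, 5 and 2, and SLC10A2, the apical bile acid importer, had at most 1 count in any library. The summed ileal list was 2.80, 2.56 and 2.48 CPM in WT and 6.86, 6.36 and 6.10 CPM in the MUL1(-/-) libraries. Nearly all of this sum was SLC51A, at 2.79, 2.53 and 2.40 CPM in WT and 6.84, 6.32 and 6.08 CPM in the MUL1(-/-) libraries.

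NR1H4, the bile acid receptor FXR, is known to bind the FABP6 gene and drive it in the ileum. It had 0, 3 and 4 counts in WT and 7, 17 and 12 in the MUL1(-/-) libraries. Every MUL1(-/-) library was above every WT library, but the gene had too few counts to pass the filter. With no filter it was called higher (log2 fold change 2.40, edgeR adjusted p = 0.00201), as it was without the first MUL1(-/-) library or without any 1 of the WT libraries (1.83 to 3.00). Over all 14 bile acid handling genes, 9 were tested and 2 rose, SLC51A and BAAT, beside 4.23% of all tested genes called higher. BAAT, which joins bile acids to glycine or taurine, had 10, 16 and 17 counts against 30, 27 and 27 (log2 fold change 1.03, edgeR adjusted p = 0.0218). It was not called by DESeq2, nor without the first or the second library of either genotype. The count of the list that rose was 1 in those settings. FGFR4, the most counted gene of the list and the receptor for FGF19, had 37.4 ± 4.26 CPM in WT and 25.0 ± 1.60 CPM in the MUL1(-/-) libraries (log2 fold change -0.58, edgeR adjusted p = 0.000149), past the adjusted p but under the fold.

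FABP2 (ENSG00000145384, chr4:119317250-119322390, minus strand), the intestinal fatty acid carrier, was near the limit of detection. It had 7, 9 and 6 counts in WT and 7, 9 and 4 in the MUL1(-/-) libraries, so the groups overlapped and their means differed by less than 1 SD. It was not tested, and with no filter on low counts its log2 fold change was -0.036 ± 0.58 (SE, edgeR adjusted p = 0.982). Its few counts fell in all 4 exons in WT and in 3 of them in the MUL1(-/-) libraries, and the largest bin, the last exon, had 2, 5 and 4 against 4, 2 and 1. The enterocyte markers beside it were uneven. CDX2, the intestinal homeobox factor, was the most abundant, and it (13.8 ± 0.255 against 12.3 ± 2.30 CPM) and VIL1, the microvillus protein villin (7.78 ± 0.520 against 7.39 ± 0.721 CPM), were not called. Of the VIL1 counts 98.5% fell where another gene has exons, and its unshared bins had 5, 17 and 6 counts against 20, 30 and 12 (log2 fold change 1.22, edgeR adjusted p = 0.0536). SI, the brush-border sucrase-isomaltase, rose from 1, 3 and 1 counts to 162, 159 and 172, a ratio of pooled CPM of 104 with an exact 95% counting interval from 44.1 to 320.3 (edgeR adjusted p = 1.14e-09). That interval is too narrow, because a read was counted in each bin it touched. The log2 fold change of SI was 6.59, and 7.20 without the second WT library. SI passed the filter on low counts through its MUL1(-/-) libraries. ALPI, the intestinal alkaline phosphatase, and APOA4 were at or under 3 counts in every library. The list summed to 21.6, 21.0 and 22.1 CPM in WT and 19.7, 20.0 and 23.2 CPM in the MUL1(-/-) libraries, with overlap.

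**Figure D3:**
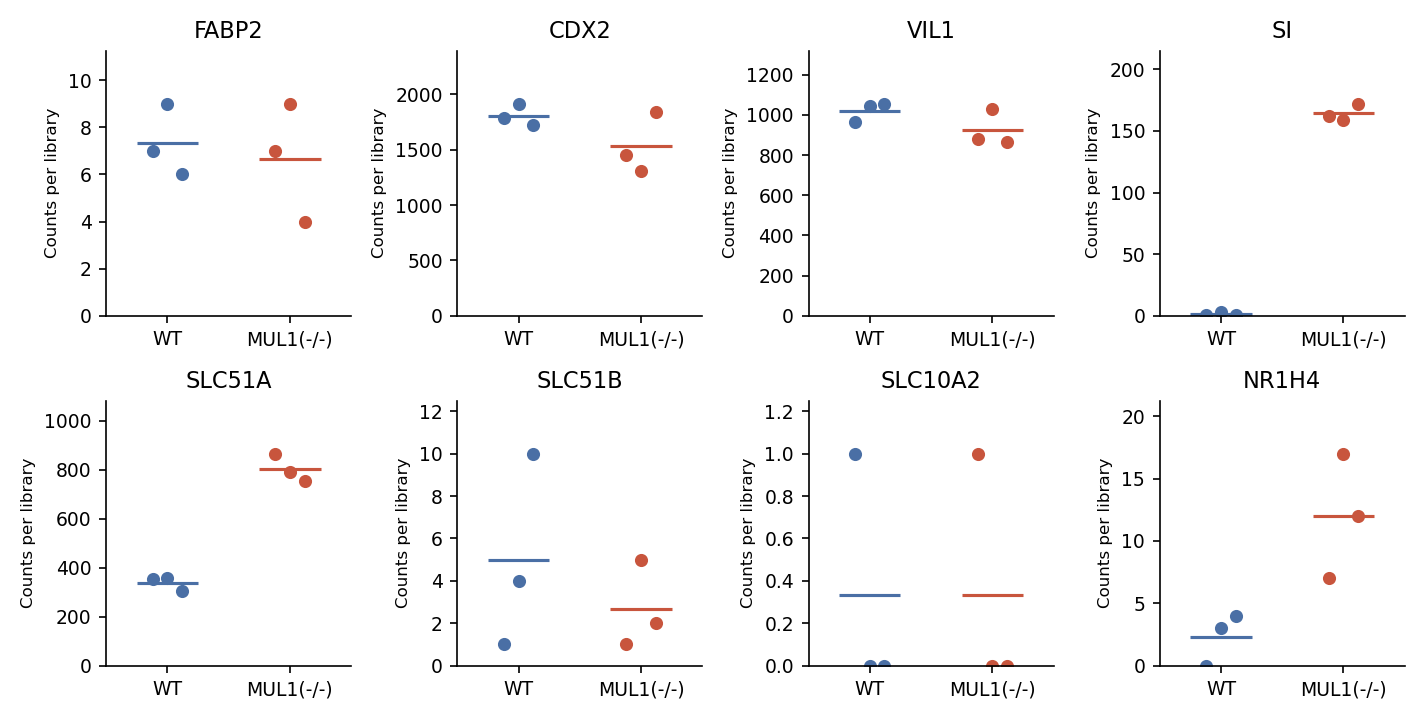
Counts per library, not scaled for depth, of FABP2 and 7 intestinal or bile acid genes, 1 point per library with group means as lines and a separate axis per gene. SI, SLC51A and NR1H4 are higher in each MUL1(-/-) library, whereas FABP2, CDX2, VIL1, SLC51B and SLC10A2 overlap between genotypes.

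FABP4 (ENSG00000170323) encodes the adipocyte and macrophage carrier, which binds long-chain fatty acids released by lipolysis and is a classical target of PPARG. It had 14, 4 and 3 counts in WT and 29, 34 and 61 in the MUL1(-/-) libraries, or 0.110, 0.0283 and 0.0238 against 0.229, 0.272 and 0.492 CPM. The groups did not overlap, but the third MUL1(-/-) library and the first WT library were well above the others of their group. FABP4 rose, with a log2 fold change of 2.61 ± 0.49 (SE, edgeR adjusted p = 0.000663). Leaving out each library in turn gave 2.21 to 3.61, the highest without the first WT library.

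Counts in FABP4 came from all 4 of its exons in the MUL1(-/-) libraries. The main bin of exon 1 had 1, 1 and 0 counts in WT and 3, 4 and 7 in the MUL1(-/-) libraries. That of exon 2 had 2, 0 and 1 against 4, 7 and 14, and that of exon 3 had 1, 0 and 1 against 8, 8 and 13. That of exon 4 had 3, 0 and 0 against 8, 6 and 10. In each of these bins the MUL1(-/-) libraries were above the WT libraries. Of the 21 WT counts, 1 lay in a bin that only a non-coding transcript holds. The second WT library had 1 count in each of the adjoining bins of exon 1 and none elsewhere. The third had 1 in each bin of exon 2 and 1 in the main bin of exon 3. A read was counted in each bin it touched, so these WT counts may come from fewer reads. Counted by its most counted bin alone, FABP4 had too few counts to be tested.

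FABP4 and FABP5 are neighbours on chromosome 8, at 81478419 to 81483263 on the minus strand and at 81280363 to 81284777 on the plus strand (GRCh38). Among the 10 tested genes nearest to FABP4, 5 on each side, none was called and the median log2 fold change was 0.19. FABP5 was among those 10. For FABP6 the 10 nearest tested genes had a median near 0 and none was called, for FABP3 the median was -0.10 and none was called, and for FABP5 it was 0.064 with FABP4 the only gene called. PMP2, the myelin carrier, FABP9, a sperm carrier, and FABP12 lie in the same cluster. PMP2 and FABP9 had at most 3 counts in any library, and FABP12 had 0, 3 and 1 counts in WT and 10, 5 and 2 in the MUL1(-/-) libraries, which overlapped and were not tested.

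FABP4 is known from adipocytes and macrophages. Of the 5 adipocyte markers 4 were tested and none was called, ADIPOQ, the hormone adiponectin that defines the mature cell, had at most 2 counts in any library, and the most abundant was CFD, a complement protease. The list summed to 10.2, 9.03 and 8.82 CPM in WT and 6.93, 6.29 and 6.23 CPM in the MUL1(-/-) libraries, and CFD made up most of it (8.54 ± 0.848 against 5.25 ± 0.295 CPM, log2 fold change -0.70). The other 3 tested were PLIN1, a lipid droplet coat protein (73, 70 and 89 counts against 119, 135 and 96, 0.66, edgeR adjusted p = 0.0176, past the adjusted p but under the fold), LEP (0.47, edgeR adjusted p = 0.400) and CIDEC (0.59, edgeR adjusted p = 0.443). Of the 5 macrophage markers, all tested, 1 rose, beside 4.23% of all tested genes called higher. This was PTPRC, the leukocyte phosphatase CD45, from 21, 8 and 8 counts to 37, 52 and 48 (log2 fold change 1.94, edgeR adjusted p = 0.00085, and 2.59 without the first WT library). PTPRC passed the filter on low counts only with its MUL1(-/-) libraries. CSF1R, a growth factor receptor of macrophages, had 44, 70 and 57 counts against 93, 77 and 127 (0.87, edgeR adjusted p = 0.00798), under the fold, and was called higher without the second MUL1(-/-) library (1.04). CD14 (0.51, edgeR adjusted p = 0.0653) and LYZ (0.043, edgeR adjusted p = 0.943) were not called. The most abundant was the lysosomal protein CD68, of whose counts 96.5% fell where another gene has exons. CD68 was not called (0.34, edgeR adjusted p = 0.0755), with 1.36 ± 0.129 against 1.73 ± 0.0901 CPM. The list, of which CD68 was the largest part, summed to 2.67, 2.55 and 3.09 CPM against 4.20, 4.03 and 4.04 CPM. These sums did not overlap, which held in that direction for 24.1% of single tested genes.

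FABP5 (ENSG00000164687), the epidermal carrier, binds fatty acids and retinoic acid and can pass them to PPARD. It had 5029, 5305 and 5157 counts in WT and 7503, 7650 and 6081 in the MUL1(-/-) libraries, or 39.6, 37.5 and 40.9 against 59.3, 61.1 and 49.05 CPM. The groups did not overlap, and the third MUL1(-/-) library was the lowest of its group. FABP5 was 1.44-fold higher, with a log2 fold change of 0.52 ± 0.086 (SE, edgeR adjusted p = 0.000222, 95% interval 0.35 to 0.69), under the fold threshold. Leaving out each library in turn gave 0.47 to 0.61.

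The FABP5 difference was even along the gene. Its 5 most counted bins held 98.8% to 99.1% of its counts, and their ratios of mean CPM lay between 1.42 and 1.46. Bins that only retained-intron transcripts hold had 0.547% to 0.835% of the counts. The first exon, with 18.8% of the counts, lies across from an exon of an antisense gene (ENSG00000254027), and reads of the 2 genes could not be told apart there because the counting did not use strand. In unshared bins alone the log2 fold change was again 0.52. The genome carries many processed copies of FABP5, whose reads may be split from the parent's. The 15 annotated FABP5 pseudogenes had 71, 67 and 80 counts in WT and 90, 85 and 78 in the MUL1(-/-) libraries, 1.11% to 1.55% of FABP5. The most counted were FABP5P7 (29, 17 and 27 against 38, 43 and 33), FABP5P9 (17, 22 and 18 against 18, 15 and 13) and FABP5P2 (6, 10 and 10 against 10, 8 and 11).

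**Figure D4:**
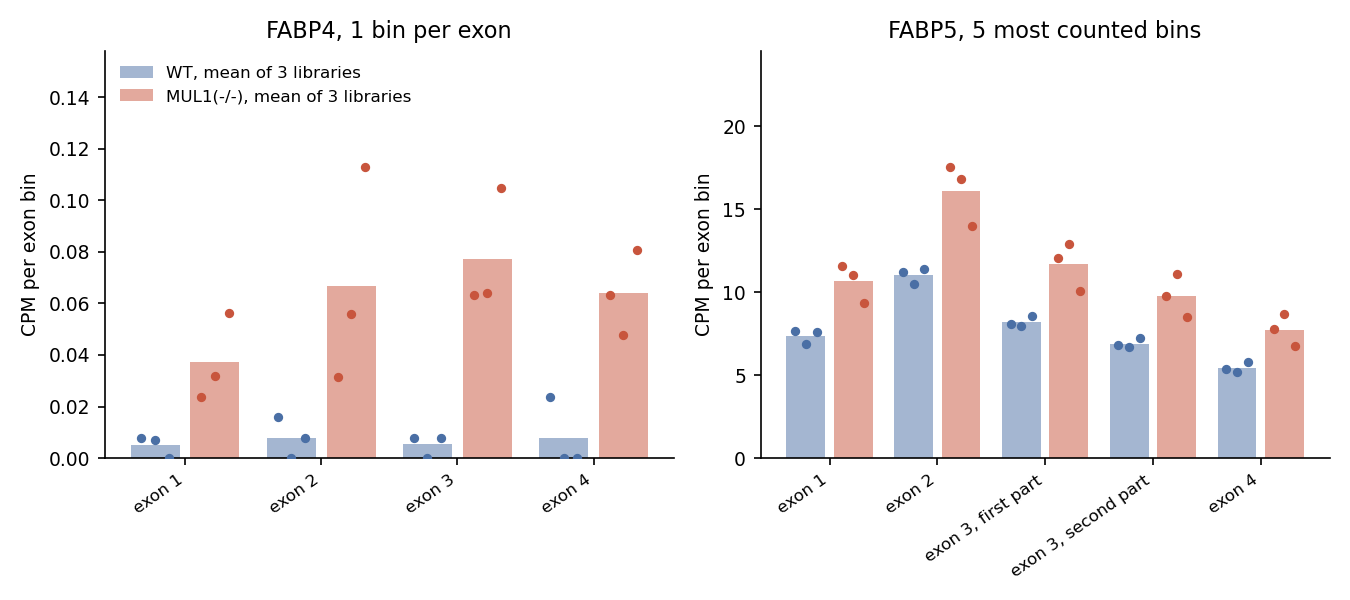
CPM per exon bin of FABP4 (left, the main bin of each exon) and FABP5 (right, its 5 most counted bins) in 5′ to 3′ order, bars for the mean of 3 libraries and points for single libraries, blue for WT and red for MUL1(-/-). In FABP4 the blue bars are near 0 and the red ones are spread over all exons, and in FABP5 every red bar is 1.42 to 1.46 times its blue neighbour.

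Epidermal markers were nearly absent beside FABP5. None of the 5 was tested, KRT5, a basal keratin, was the most abundant with at most 15 counts, and KRT14 and LORICRIN had at most 3. The list summed to 0.0157, 0.0353 and 0.0714 CPM in WT and 0.221, 0.0399 and 0.0242 CPM in the MUL1(-/-) libraries, 1 of which was far above the others.

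FABP3 (ENSG00000121769, chr1:31365625-31376850, minus strand), the heart and muscle carrier that feeds fatty acids to mitochondria, was the second most abundant member in either genotype. It had 146, 191 and 167 counts in WT and 200, 172 and 136 in the MUL1(-/-) libraries, or 1.15, 1.35 and 1.33 against 1.58, 1.37 and 1.10 CPM. The MUL1(-/-) libraries spanned the WT range. The log2 fold change was 0.083 ± 0.17 (SE, edgeR adjusted p = 0.738), with a 95% interval from -0.25 to 0.41. A change as large as that of FABP5 (0.52) lies outside this interval, whereas one of up to 0.41 lies within it. Along FABP3 the 6 most counted bins had ratios of mean CPM from 0.934 to 1.10. The first exon of an upstream start had 2, 5 and 2 counts against 12, 9 and 1, with overlap.

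Of the 5 muscle markers, all tested, 2 rose, beside 4.23% of all tested genes called higher. These were TNNT2, cardiac troponin T, from 14, 42 and 21 counts to 63, 43 and 90 (log2 fold change 1.43, edgeR adjusted p = 0.00465), and CKM, muscle creatine kinase, from 13, 36 and 16 to 63, 42 and 40 (1.24, edgeR adjusted p = 0.0101). MYH7 (log2 fold change 0.90), MB (-0.43) and MYH6 (-0.40) were not called. CKM lost its call without the first library of either genotype and in its most counted bin. TNNT2 was the most abundant of the list, which summed to 0.401, 0.898 and 0.579 CPM in WT and 1.33, 0.918 and 1.32 CPM in the MUL1(-/-) libraries.

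FABP1 (ENSG00000163586, chr2:88122982-88128116, minus strand), the liver carrier, had 0 counts in all 6 libraries, which allows a level of up to 0.0212 to 0.0242 CPM in each (3 counts, counting error only). Hepatocyte markers were also scarce. Of the 5, only ALB, serum albumin, was tested, it was the most abundant and was not called, and APOB had no count. The list summed to 0.252, 0.184 and 0.325 CPM in WT and 0.308, 0.375 and 0.258 CPM in the MUL1(-/-) libraries.

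FABP7 (ENSG00000164434, chr6:122779475-122784074, plus strand), the brain carrier of radial glia, was under 3 counts in 1 WT and 2 MUL1(-/-) libraries. It had 2, 7 and 6 counts in WT and 4, 2 and 0 in the MUL1(-/-) libraries, which overlapped. It was not tested, and with no filter its log2 fold change was -1.18 ± 0.86 (SE, edgeR adjusted p = 0.410), so a difference was not detectable at this depth. No FABP7 bin had more than 2 counts in any library. Of the 6 glial markers 5 were tested and 1 rose, beside 4.23% of all tested genes called higher. This was SOX2, a neural stem cell factor, which went from 8.82 ± 0.650 to 18.5 ± 1.42 CPM (log2 fold change 1.07, edgeR adjusted p = 8.25e-07). SLC1A3, a glutamate transporter, was the most abundant, and HES5 had at most 1 count. The list summed to 67.8, 64.9 and 64.3 CPM in WT and 72.5, 75.9 and 64.9 CPM in the MUL1(-/-) libraries.

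Of the 9 other carriers of the same protein family, most of which bind retinoids, 4 were tested, none rose and 2 fell, beside 3.87% of all tested genes called lower. CRABP2, which carries retinoic acid to its nuclear receptors, had 13314, 13935 and 10700 counts in WT and 1018, 1094 and 771 in the MUL1(-/-) libraries. It fell from 96.0 ± 10.1 to 7.67 ± 1.30 CPM, a log2 fold change of -3.65 ± 0.12 (SE, edgeR adjusted p = 1.17e-11). RBP7, a retinol carrier, had 728, 759 and 703 counts against 302, 344 and 289 and fell as well (log2 fold change -1.16 ± 0.12, SE, edgeR adjusted p = 2.50e-06). In both genes every MUL1(-/-) library was below every WT library, as in 24.4% of tested genes.

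RBP5, a further retinol carrier, had 95, 92 and 94 counts against 73, 80 and 37 and was not called (log2 fold change -0.50, edgeR adjusted p = 0.130). RBP2, the intestinal retinol carrier, had 10, 12 and 8 counts against 7, 3 and 6, and CRABP1, the second retinoic acid carrier, had none. FABP5 and CRABP2, the abundant carriers of retinoic acid here, were set side by side after their values were seen, and the order of their levels was reversed between genotypes. Per kb of exon, FABP5 was 0.200, 0.202 and 0.255 times CRABP2 in WT and 3.90, 3.70 and 4.18 times CRABP2 in the MUL1(-/-) libraries.

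**Figure D5:**
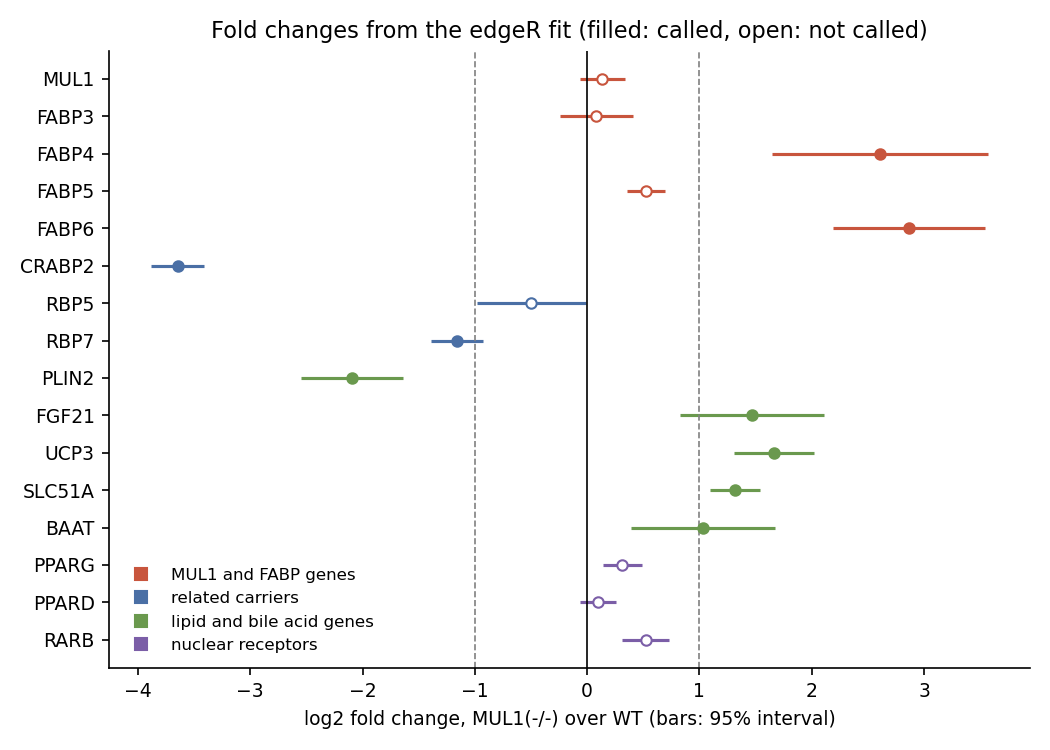
Log2 fold change (MUL1(-/-) over WT) from the edgeR fit with its 95% interval, for MUL1 and the tested FABP genes, 3 tested relatives, called lipid and bile acid genes and 3 nuclear receptors. Filled points are called and open ones are not, the dashed lines mark a log2 fold change of 1 in each direction, and CRABP2 lies furthest to the left and FABP6 furthest to the right.

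Genes that feed the carriers or act beside them mostly stayed within a log2 fold change of 1. Over 6 lists, on uptake, acyl-CoA, nuclear receptors, PPAR targets, lipolysis and bile acids, 60 of 70 genes were tested. Of these 4 rose and 1 fell, or 8.33%, close to the 8.11% of all tested genes. Among those that rose, BAAT and the PPAR target FGF21 passed the filter on low counts only with their MUL1(-/-) libraries. These counts over the lists are therefore a description only. None of the 10 uptake genes was called, but 5 passed the adjusted p, 3 higher and 2 lower, beside 37.5% of all tested genes in either direction. The higher were the fatty acid transporters SLC27A5 (log2 fold change 0.76, edgeR adjusted p = 3.48e-05), SLC27A2 (0.55) and SLC27A4 (0.50), and the lower were SLC27A1 (-0.50) and SLC27A3 (-0.29). GOT2, which also serves as a membrane fatty acid binding protein, was the most counted (158 ± 6.82 against 175 ± 3.47 CPM, log2 fold change 0.15), and CD36, the fatty acid translocase, had 37, 37 and 43 counts against 45, 51 and 48 and was not called. None of the 13 genes of acyl-CoA synthesis and binding was called, but past the adjusted p 5 were higher and 1 was lower. ACSL3, an acyl-CoA synthetase of lipid droplets, was the most counted (log2 fold change -0.14). ACSBG1, an acyl-CoA synthetase that the study named from these libraries, had a log2 fold change of 0.62 (edgeR adjusted p = 1.80e-05), but 97.8% of its counts fell where another gene has exons. In its unshared bins it had 20, 14 and 6 counts in WT and 129, 152 and 58 in the MUL1(-/-) libraries and was called higher (log2 fold change 3.14, edgeR adjusted p = 1.26e-05). None of the 6 lipolysis genes was called either, but past the adjusted p 3 were higher and 1 was lower. The lower was PNPLA2, the triglyceride lipase ATGL and the most counted (-0.35, edgeR adjusted p = 0.00922). The higher were PLIN1 (0.66), PLIN3 (0.45) and ABHD5 (0.31). PLIN1 was called higher by its most counted bin alone (1.15, edgeR adjusted p = 0.00968).

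Of the 14 nuclear receptors 11 were tested and none was called, with the untested NR1H4 given above. RXRB, a shared partner, was the most counted (log2 fold change -0.034). PPARG, which drives FABP4 in adipocytes, went from 20.9 ± 2.35 to 26.0 ± 0.967 CPM (log2 fold change 0.32, edgeR adjusted p = 0.0126), past the adjusted p but under the fold. PPARD, the receptor FABP5 is known to serve, had 15.3 ± 0.472 and 16.4 ± 0.292 CPM (0.097, edgeR adjusted p = 0.384). RARB, a receptor and a target of retinoic acid, went from 7.36 ± 0.812 to 10.6 ± 0.759 CPM (0.52, edgeR adjusted p = 0.00127), also under the fold. NR1H2, the oxysterol receptor LXR beta, had the smallest adjusted p of the list (0.55, edgeR adjusted p = 8.30e-05), and RARG, a further retinoic acid receptor, was lower in every MUL1(-/-) library (-0.27, edgeR adjusted p = 0.0286). These 4, PPARG, RARB, NR1H2 and RARG, were the receptors of the list past the adjusted p, beside 37.5% of all tested genes.

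Of 14 PPAR target genes 12 were tested, 2 rose and 1 fell, beside 4.23% of all tested genes called higher and 3.87% called lower. The number that rose was 1 with at least 1 CPM required in 3 libraries, and 3 with library totals or with no filter. FGF21, a fasting hormone, had 18, 23 and 8 counts in WT and 42, 44 and 43 in the MUL1(-/-) libraries (log2 fold change 1.47, edgeR adjusted p = 0.00246). UCP3, a mitochondrial uncoupling protein, had 49, 70 and 54 against 165, 163 and 193 (1.66, edgeR adjusted p = 4.93e-06). PLIN2, the lipid droplet coat protein, fell from 87, 136 and 133 to 26, 27 and 26 (-2.09, edgeR adjusted p = 6.26e-06). ACADM, a medium-chain acyl-CoA dehydrogenase, was the most counted and was not called (-0.091).

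The genes whose log2 CPM over the 6 libraries ran closest to FABP6 were ITGB2, UBE2F and TAGLN (Pearson r 0.998, 0.998 and 0.997), and those closest to FABP4 were DHRS12, INPP5A and LAPTM4B (0.998, 0.996 and 0.996). They were picked from 15290 protein-coding genes, and the 6 points of every gene share the split between genotypes. Their own log2 fold changes were smaller, at 0.92, 0.39 and 0.49 for the first set and 0.54, 0.17 and 0.21 for the second, and none was called.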

How the data were processed

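The authors trimmed reads with Trimmomatic 0.36 and aligned them to GRCh38 with STAR 2.5.2b, per the submitters' processing notes. They deposited raw counts per exon bin of a flattened Ensembl annotation, without a header that names the counting program, which is not given in the sources used here. Libraries were made with a SMARTER mRNA kit. Of bins on the same bases of both strands, 11 pairs with at least 100 counts had a median ratio of 1, so strand was not used. There were 1760 bins of at most 12 bases with over 1000 counts in a library, so a read can count in several bins and a gene count exceeds its reads.

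Counts were summed per gene over 597973 bins. A bin of several genes went to the single gene whose same-strand exon (GENCODE release 29) touched it and was otherwise left out (4.35% to 4.44% of counts). The name table gave symbols for 56209 of 57123 genes. edgeR 4.0.16 (TMM, filterByExpr with a minimum count of 10, quasi-likelihood) compared 3 WT with 3 MUL1(-/-) libraries over 25125 genes, with no covariate. Thresholds follow the study's methods, whose DESeq2 (1.42.0) was an alternative. SE is the absolute log2 fold change over the square root of F, and intervals are 1.96 SE. On simulated counts for this comparison edgeR recovered 200 of 200 genes changed by a log2 fold of 2 and made 2 false calls among 25125 genes. The changed genes were drawn from genes with higher mean counts than FABP4 or FABP6, and every gene was simulated with the same dispersion. This recovery therefore does not apply to FABP4 and FABP6. Between replicates of a group the chi-square over degrees of freedom was 2.95 to 10.7. Counting a read in several bins raises this ratio as well, so it does not by itself show spread beyond counting noise.

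The members and all lists were chosen with earlier results of these data known. Named genes are MUL1, the 7 members, the 3 most counted FABP5 pseudogenes, the relatives (1 is not reported here), every called gene and the most counted uncalled gene of each list, and the 3 protein-coding genes (mean of at least 0.1 CPM) most correlated with each called member. ACSBG1, CD36, NR1H2, NR1H4, PLIN1, PPARG, PPARD, RARB, RARG, the SLC27A transporters and marker genes were named besides that rule. Alternatives changed the test, scaling, filter, gene count, call, block and libraries.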

Additional observations from a re-analysis of the deposited data

How the results depend on the processing

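FABP4 kept its call in all 13 alternatives that gave it a value, and FABP6 in all 14. Among these, dropping the fold threshold could not remove a call. Adding the pseudogenes to FABP5 left the counts of FABP4 and FABP6 as they were. FABP5 passed the adjusted p in all 15 alternatives and so was called, at 0.52, when the fold threshold was dropped. With at least 1 CPM required in 3 libraries FABP4 and FABP6 were not tested, leaving 0 members called, 331 genes higher and 446 lower over all genes, and 2 higher and 0 lower in the 6 related lists. By adjusted p alone these were 4716 and 4706 over all genes and 21 and 7 in the lists. With each gene's most counted bin in place of the sum, 1 member was called (FABP6), the summed level was 11.3 CPM in WT and 16.6 CPM in the MUL1(-/-) libraries, and levels over the 6 libraries were 0.0125 CPM per kb for FABP2, 2.20 for FABP3, 0.405 for FABP4, 78.4 for FABP5 and 0.511 for FABP6. FABP3, never called, ran from -0.034 to 0.21 when each library was left out in turn and turned negative (-0.034) without the first MUL1(-/-) library. The median of the neighbours of FABP4 was -0.14 with 10 on each side.

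Samples with the same number in both genotypes were not shown to pair: the correlation of their deviations from the group means ran from -0.081 to 0.16 over 3 pairs (15855 genes). With the number as a replicate block, 1015 genes were higher and 940 lower, and the log2 fold change was 0.074 for FABP3, 2.61 for FABP4, 0.52 for FABP5 and 2.90 for FABP6. It changed no call among the members.

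Depth limits FABP1, FABP2 and FABP7, and FABP4 and FABP6 in WT, which rest on 21 and 26 counts over 3 libraries. The reads behind these are fewer where a read touched several bins.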
